A study of Mus musculus with 6 samples.

Results

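The genes described here carry the names of the mouse's mitochondrial ribosomal proteins and were measured by RNA-seq in primary chondrocytes after Pkm2 knockdown. They are the genes of the deposited table whose names start with Mrpl or Mrps, with 6 names containing -ps left out, which gave 78 of 55416 genes. Of these, 49 had an Mrpl name and 29 an Mrps name. By role, 51 encode proteins of the large subunit and 26 proteins of the small subunit. Mrps30 and Mrps18a carry a small-subunit name although their proteins sit in the large subunit, and both were counted there. The remaining gene, Mrps36, despite its name encodes a component of the 2-oxoglutarate dehydrogenase complex and was kept apart from both subunits.

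In 3 libraries the chondrocytes had received a scrambled siRNA (siNC), and in the other 3 an siRNA that targets Pkm2 (siPkm2). Cells of both groups were grown in DMEM/F12 with fetal bovine serum, and the labels give the knee joints of newborn mice as their source, whereas the supplementary methods describe adult mice. The genotype label reads WT for siNC. For siPkm2 it reads PKM2 knockdown, PKM3 knockdown and PKM4 knockdown in replicates 1, 2 and 3, while the titles call all of them siPKM2, and they were grouped by title. The sources used here tie no siRNA number to the sequenced cultures, and the supplement states that the third of the siRNAs designed against Pkm2 was chosen. Nothing in the labels says that the libraries came from separate animals, so p-values measure the spread between these libraries, which may be technical.

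Mitochondria carry their own ribosome, which translates the few proteins encoded by mitochondrial DNA, all of them subunits of the respiratory chain and ATP synthase. Its ribosomal RNAs are transcribed from mitochondrial DNA, whereas its proteins are encoded in the nucleus, made in the cytosol and imported. Some of these proteins have bacterial homologs and others occur in mitochondria without a bacterial counterpart. Pkm encodes pyruvate kinase, whose M2 isoform catalyses the last step of glycolysis, and chondrocytes, which live in poorly vascularised cartilage, are known for drawing heavily on glycolysis.

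Library totals lay between 22316996 and 25691029 estimated counts. Levels are CPM, counts relative to the library total scaled by TMM factors, and fold changes are siPkm2 over siNC from the same counts. For replicates 1, 2 and 3 in this order, Pkm had 2332, 2742 and 1672 CPM in siNC against 335.8, 539.9 and 308.9 CPM after knockdown, and the groups did not overlap. Its log2 fold change was −2.51, with an adjusted p of 0.0738 by edgeR's quasi-likelihood test and of 0.00932 once the replicate number entered as a block. Replicate 2 of both groups stood apart from the other libraries on the first principal component, which held 51.4% of the variance, and its Acan level was 232.7 CPM in siNC against 2563 and 2614 CPM in the other siNC libraries. Over the 8 chondrocyte markers the summed TPM (a length-corrected share of transcripts) lay between 3960 and 17300 in siNC and between 5300 and 14000 in siPkm2, and all 8 were detected above 1 TPM on average. The 5 fibroblast markers summed to between 1280 and 2600 TPM in siNC and between 830 and 2090 TPM in siPkm2, all 5 of them above 1 TPM on average. The 3 osteoblast markers, all above 1 TPM on average, summed to between 23.7 and 288 TPM in siNC and between 15 and 106 TPM in siPkm2. The 3 muscle markers, 1 of them above 1 TPM on average, summed to between 1.42 and 5.58 TPM and between 1.08 and 1.19 TPM. The 4 endothelial markers summed to less than 1 TPM in every library. The 5 macrophage markers, of which only 2 were above 1 TPM on average, summed to between 9.16 and 99.1 TPM in siNC and between 12.1 and 58.6 TPM in siPkm2. The part of these cell types in the results was not tested. In bulk RNA, fewer cells of a type and less RNA per cell cannot be told apart.

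All 78 members, Mrps36 included, passed the filter on low counts. The lowest mean was that of Mrpl23, at 122 counts, and the median was 643 counts. Without a block, edgeR's quasi-likelihood test called none of the members at a Benjamini-Hochberg adjusted p under 0.05, and likewise none of the 15269 genes tested (0%). At an unadjusted p under 0.05 there were 16 members (20.5%), of which 14 were higher and 2 lower, against 17.6% of all genes. DESeq2's Wald test without a block also called 0 members, against 5.31% of its genes.

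The direction of the differences leaned to higher levels. A positive log2 fold change was found for 52 of the 78 members (66.7%), against 48.1% of all genes tested, and the median was 0.15 against −0.02. With upper-quartile factors, which lowered the median of all genes to −0.09, these were 46 members against 6447 of the 15269 genes, and the members' median was 0.08. The values were small, from −0.59 for Mrpl33 to 0.68 for Mrpl22, and those of 32 members lay within 0.2 of 0. Only these 2 extremes, Mrpl33 and Mrpl22, differed by more than 1.5-fold. Every siPkm2 library lay above every siNC library for 24 members (30.8%), against 12% of all genes, and below for 2 members (2.56%), against 12.3%.

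**Figure D1:**
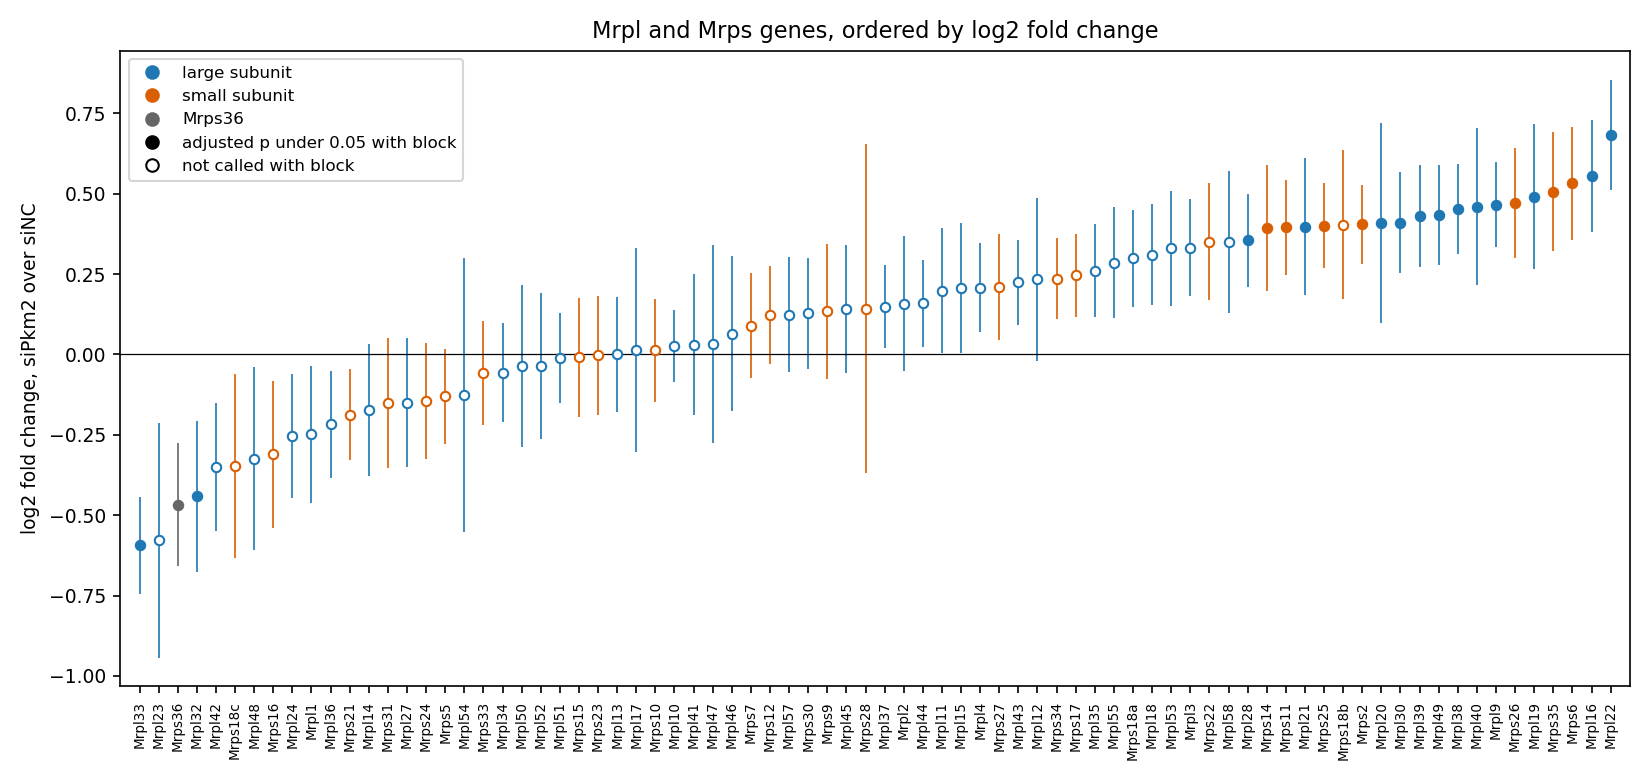
Log2 fold change (siPkm2 over siNC, edgeR without a block) of the 78 members, Mrps36 included, in ascending order; bars show the standard error, colours the subunit, and filled points the genes called in the blocked test (adjusted p under 0.05). The order runs from −0.59 (Mrpl33) to 0.68 (Mrpl22), and the filled points comprise 3 genes below 0 and 19 above it.

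Libraries with the same replicate number deviated together. Across the 78 members, the deviations of same-numbered libraries from their group means correlated at 0.614, 0.797 and 0.775 for replicates 1, 2 and 3. For the median member, the replicate number held 50.8% of the variance of its level and the group 37.3%. With this number taken as a block, the edgeR quasi-likelihood test called 22 members (28.2%), against 23.1% of all genes. The direction of the calls was uneven, since 19 members were called higher (24.4%, against 12.3% of all genes) and 3 lower (3.85%, against 10.8%). No member was called at a fold change over 2, a size that 5.83% of all genes passed. DESeq2 with the same block called 17 members (21.8%), against 26.5% of all genes. All 17 were among these 22, and the test missed Mrpl21, Mrpl28, Mrpl32, Mrps11 and Mrps36. With replicate 2 of both groups left out, the blocked test called 31 members (39.7%, against 39.1% of all genes), 24 of them higher (30.8% against 19.8%) and 7 lower (8.97% against 19.3%). These 31 held 21 of the 22 genes, all but Mrps11. With replicate 1 or replicate 3 left out instead, the blocked test called 0 members and 0 of all genes tested (0%).

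**Figure D2:**
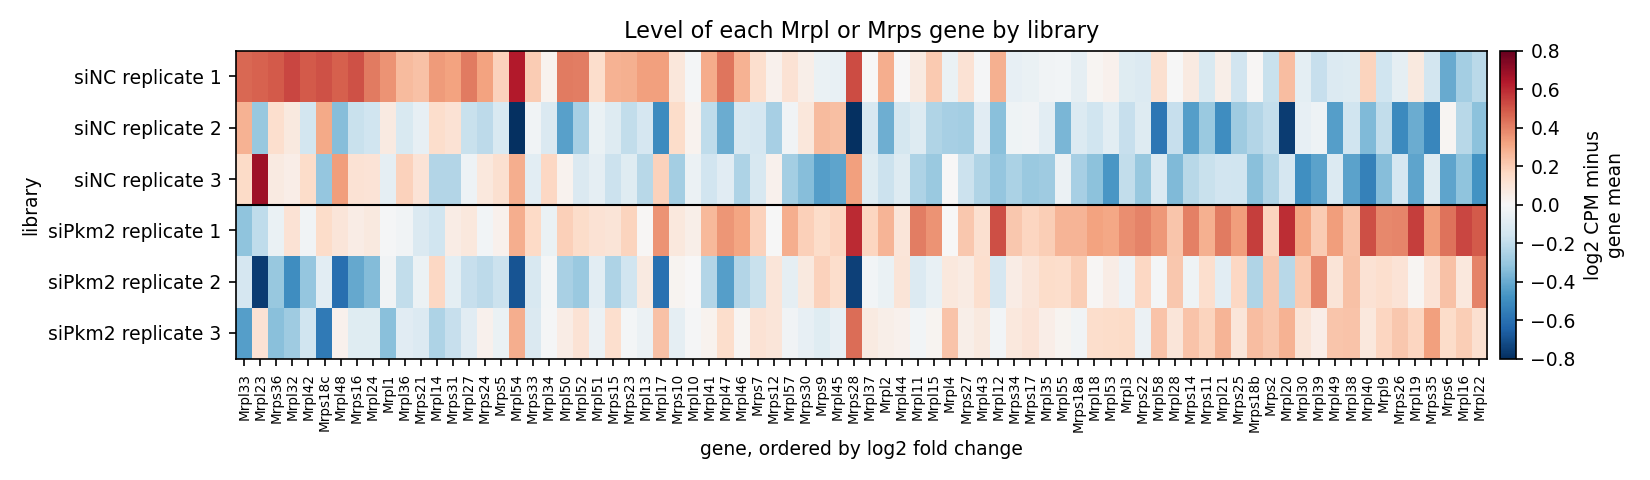
Level of each of the 78 genes in each library, as log2 CPM minus the gene's mean over the 6 libraries; columns follow the log2 fold change and the line separates siNC from siPkm2. Replicate 1 of both groups is high for many genes, and at the right edge, which ends with Mrpl22 at a log2 fold change of 0.68, the siPkm2 rows are higher than the siNC rows.

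In the large subunit, 35 of 51 genes had a positive log2 fold change and the median was 0.16. The blocked test called 12 of them higher and 2 lower. Mrpl22, whose protein lines the tunnel through which the new polypeptide leaves, was the gene with the highest fold change. It lay at 14, 12.9 and 11.7 CPM in siNC and at 22.9, 21.4 and 17.8 CPM in siPkm2, and the groups did not overlap. Its log2 fold change was 0.68 with a standard error of 0.17 and an adjusted p of 0.145 without the block, and 0.0163 with it. The gene lies on chromosome 11 of GRCm38 (chr11:58171661-58179565, plus strand), with no exon of another gene over its own.

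Mrpl16, whose bacterial homolog lies near the tRNA binding sites, was next in the large subunit. It lay at 13.56, 14.02 and 13.12 CPM in siNC and at 23.7, 17.3 and 18.8 CPM in siPkm2, so that the siNC libraries were close to each other and replicate 1 of siPkm2 was the highest. The log2 fold change was 0.56 with a standard error of 0.18 (adjusted p 0.195 without the block, 0.0409 with it). Mrpl9 lay at 38.4, 37.4 and 33.9 CPM in siNC and at 56.1, 47.2 and 48.3 CPM in siPkm2, again without overlap, with a log2 fold change of 0.47 (adjusted p 0.169 without the block, 0.0233 with it). Mrpl39, a protein without a bacterial counterpart, was measured at 37.9, 41.9 and 32.0 CPM in siNC and at 49.6, 56.4 and 44.7 CPM in siPkm2. The lowest siPkm2 library of Mrpl39 was therefore above the highest siNC library, and its log2 fold change was 0.43 (adjusted p 0.24 without the block, 0.0223 with it).

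Among the other large-subunit genes called higher with the block, Mrpl19 had a log2 fold change of 0.49, Mrpl40 of 0.46, Mrpl38 of 0.45, Mrpl49 of 0.43, and Mrpl30 and Mrpl20 of 0.41 each. Mrpl21 followed at 0.40, and Mrpl28, named after its values were seen, at 0.36. Mrpl38 was the most even of these in the knockdown, with 40.7, 40.9 and 40.8 CPM in siPkm2 against 32.5, 31.1 and 25.9 CPM in siNC. Mrpl20 shows how far the replicate number carried the spread. It lay at 48.8, 24.2 and 37.5 CPM in siNC and at 61.8, 35.2 and 49.8 CPM in siPkm2, so that the groups overlapped while siPkm2 was higher within every number. Its adjusted p was 0.549 without the block and 0.0262 with it.

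In the small subunit, 17 of 26 genes had a positive log2 fold change and the median was 0.14. The blocked test called 7 of them, all higher, namely Mrps2, Mrps6, Mrps14, Mrps25, Mrps26, Mrps35 and Mrps11, the last named after its values were seen. Mrps6 lay at 28.3, 37.9 and 27.9 CPM in siNC and at 50.6, 44.0 and 41.5 CPM in siPkm2. Replicate 2 had the highest siNC value, yet the groups did not overlap. The log2 fold change of Mrps6 was 0.53 with a standard error of 0.18 (adjusted p 0.204 without the block, 0.0434 with it). Exons of Mrps6 overlap those of Slc5a3 on the same strand (chr16:92058270-92112227 for Mrps6), so that the split of reads between both genes rests on the authors' counting.

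Mrps35, a protein of the small subunit with no bacterial counterpart, lay at 12.9, 9.98 and 13.3 CPM in siNC and at 18.02, 15.43 and 17.98 CPM in siPkm2. Its groups were separate and its log2 fold change was 0.51 (adjusted p 0.235 without the block, 0.0312 with it). Mrps2, a homolog of a bacterial small-subunit protein, had narrow groups, at 23.95, 23.68 and 22.92 CPM in siNC and 30.7, 31.4 and 31.4 CPM in siPkm2. Its log2 fold change was 0.40 with a standard error of 0.12 (adjusted p 0.185 without the block, 0.0308 with it). Mrps26 had a log2 fold change of 0.47, Mrps25 of 0.40 and Mrps14 of 0.40. By TPM, however, Mrps25 lay at 11.1, 16.02 and 11.57 in siNC and at 18.49, 13.45 and 17.95 in siPkm2. On that scale its groups overlapped and replicate 2 went down.

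The 3 members called lower with the block were Mrpl33, Mrpl32 and Mrps36. Mrpl33, a small protein of the large subunit and one of the most abundant transcripts of the group, lay at 49.0, 43.3 and 39.7 CPM in siNC and at 28.5, 32.6 and 26.3 CPM in siPkm2. No siPkm2 library reached the lowest siNC library. Its log2 fold change was −0.59 with a standard error of 0.15 (adjusted p 0.147 without the block, 0.0202 with it). The exons of Mrpl33 (chr5:31596935-31664384 of GRCm38, plus strand) overlap those of the predicted gene Gm43809 on the same strand.

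Mrpl32 encodes a protein whose processing by a mitochondrial protease is known as a step of ribosome assembly. It lay at 21.8, 15.9 and 15.7 CPM in siNC and at 16.3, 10.7 and 12.4 CPM in siPkm2. The groups overlapped through replicate 1, and siPkm2 was lower within every number, at a log2 fold change of −0.44 (adjusted p 0.387 without the block, 0.0429 with it). Mrps36, the dehydrogenase component, lay at 19.8, 15.5 and 14.8 CPM in siNC and at 13.6, 11.5 and 11.2 CPM in siPkm2 without overlap, and its log2 fold change was −0.47 (adjusted p 0.276 without the block, 0.038 with it). Mrpl23 came close in size to Mrpl33, with a log2 fold change of −0.58, but it is the member with the fewest counts and its adjusted p was 0.465 without the block and 0.0693 with it.

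Over 20 settings of the analysis, the adjusted p of the 20 named members called with the block ran from 0.00109 to 0.873. That of Mrpl22 ran from 0.00109 to 0.441 and that of Mrpl33 from 0.00174 to 0.451, each under 0.05 in 3 of the settings. An exact two-sided permutation test on either gene gave p = 0.1, the smallest value that 3 libraries against 3 allow.

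**Figure D3:**
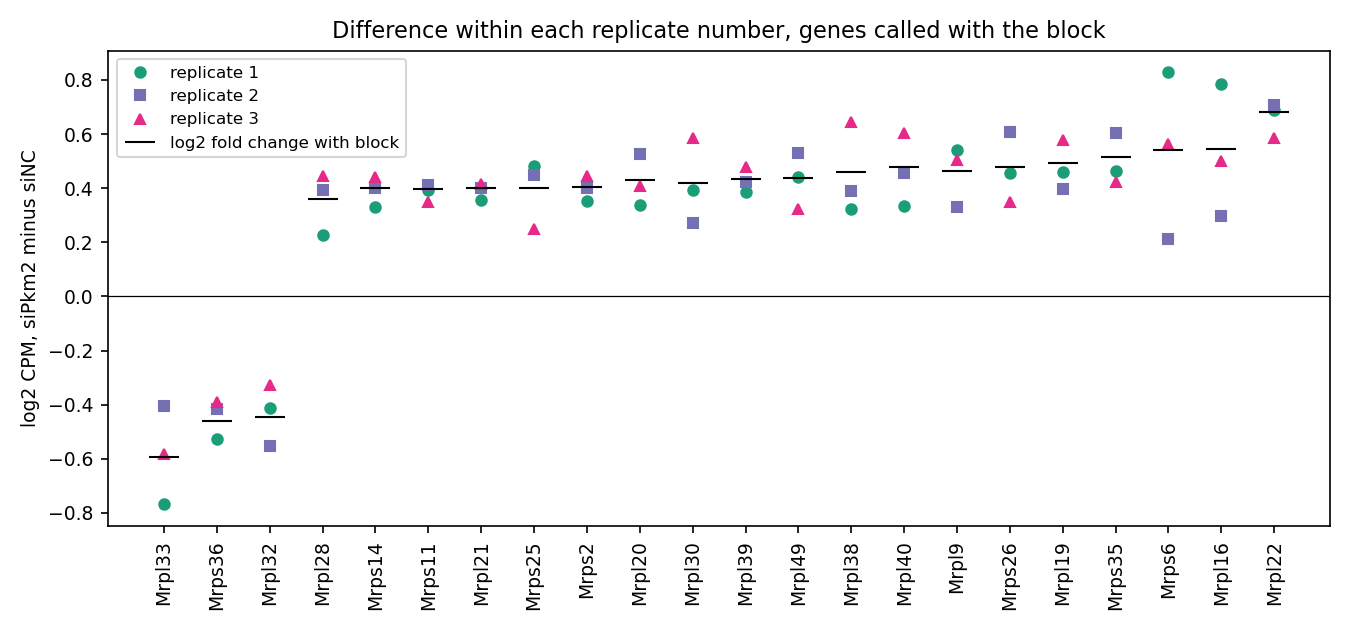
Difference in log2 CPM (siPkm2 minus siNC) within each replicate number for the 22 members called with the block, with the blocked log2 fold change as a line. All differences of a gene share its sign, from the 3 lower genes on the left to Mrpl22 (0.68) on the right, and for Mrps6 and Mrpl16 replicate 1 lies far above replicate 2.

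Within each structural group, fold changes of both signs were found. The L7/L12 stalk, on which translation factors dock, is represented by Mrpl10, Mrpl11, Mrpl12, Mrpl53 and Mrpl54, of which 4 had a positive value (3 with upper-quartile factors or library totals, where Mrpl10 was negative) and none was called. Their log2 fold changes were 0.03 for Mrpl10, 0.20 for Mrpl11, 0.23 for Mrpl12, 0.33 for Mrpl53 and −0.13 for Mrpl54. Without siPkm2 replicate 1, the values of Mrpl11 and Mrpl12 were 0.017 and 0.003. Mrpl12, also known as a binder of the mitochondrial RNA polymerase, had an adjusted p of 0.086 with the block. The 6 genes around the tunnel exit (Mrpl17, Mrpl22, Mrpl23, Mrpl24, Mrpl45 and Mrpl47) ran from −0.58 to 0.68 with a median of 0.02 (−0.05 with upper-quartile factors), and Mrpl22 was the one called. The paralogs of the S18 protein differed among themselves as well, with 0.30 for Mrps18a, 0.40 for Mrps18b and −0.35 for Mrps18c, none of them called. Over single libraries left out, Mrps18b ran from 0.20 to 0.59 and Mrps18c from −0.55 to −0.16. Genes with a bacterial homolog had a median of 0.21 in the large subunit (31 genes) and 0.12 in the small subunit (17 genes), and those without one had medians of 0.13 (20 genes) and 0.24 (9 genes).

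Per length, the members spanned a 56.8-fold range of mean TPM, from 5.71 for Mrpl19 to 324 for Mrpl52, with a median of 47.2. The 10 most abundant members held 33.9% of the summed TPM. The TPM of all 78 members summed to 4762, 4259 and 4397 in siNC and to 5023, 4393 and 4607 in siPkm2. The sum was thus higher in siPkm2 within every number, by 0.08, 0.04 and 0.07 on the log2 scale, but the means (4473 ± 260 and 4674 ± 320 TPM, SD, n = 3) differed by less than 1 SD. The large subunit gave 3021 ± 220 and 3164 ± 250 TPM, and the small subunit 1391 ± 43.5 and 1468 ± 71.3 TPM. Of the 5 most abundant members, Mrpl33 alone was called lower with the block and Mrpl30 alone was called higher. Mrpl52, Mrpl17 and Mrps21 had log2 fold changes of −0.04, 0.01 and −0.19 without the block and were not called in either fit.

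**Figure D4:**
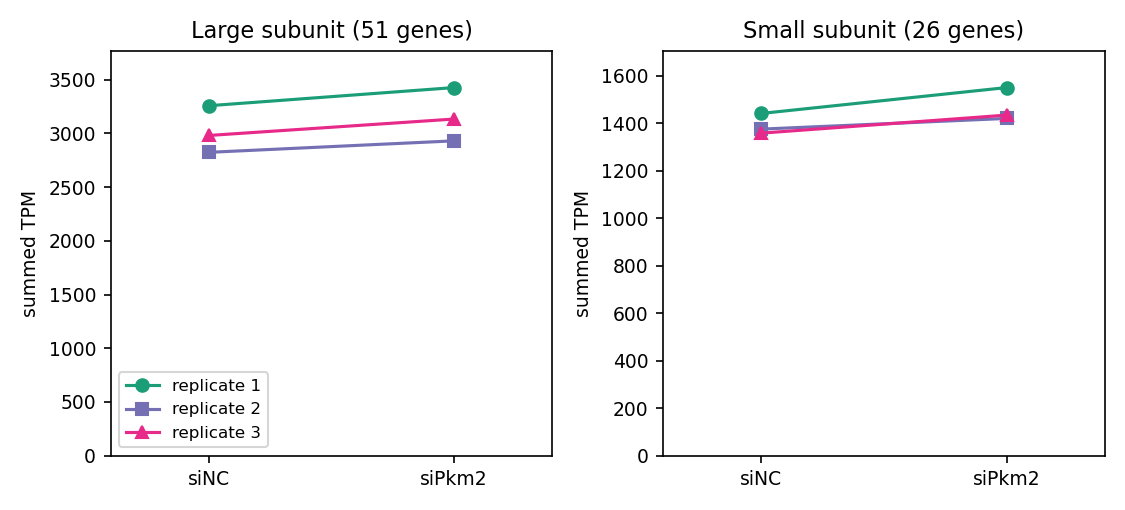
Summed TPM of the large-subunit genes (left, 51 genes) and small-subunit genes (right, 26 genes) in each library, with lines joining libraries of the same replicate number; both axes start at 0. Each line goes up slightly, for instance from 3258 to 3427 TPM for the large subunit in replicate 1, and the spread between numbers is wider than the step from siNC to siPkm2 in the large subunit.

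TPM corrects for transcript length within each library, so that a gene's TPM and CPM part where the estimated isoforms differ. The log2 ratio of TPM to CPM differed between groups by more than 0.2 for 3 members (3.85%, against 5.43% of genes with enough counts), namely Mrpl47, Mrps33 and Mrpl57, of which the last 2 were named after their values were seen. Mrpl47, a protein at the tunnel exit, lay at 9.21, 9.34 and 10.7 TPM in siNC and at 11.4, 4.10 and 5.89 TPM in siPkm2. Replicate 1 went up on this scale and the others went down, whereas its log2 fold change from counts was 0.03. Mrps33 lay at 79.1, 60.6 and 61.4 TPM in siNC and at 53.9, 47.0 and 42.1 TPM in siPkm2, without overlap, while its log2 fold change from counts was −0.06. Exons of Mrpl47 overlap those of Actl6a and Ndufb5 on the opposite strand. In all, 32 members share exonic sequence with another gene, 8 of them on the same strand, and counts were fractional for 43 members (55.1%, against 49.9% of all genes tested), so that reads shared with other loci may have been split.

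The other genes of mitochondrial translation did not share the lean toward higher levels in every list. Without the block 0 genes of these lists were called (0% of all genes), and the calls that follow are with the block (23.1% of all genes). The 5 mitoribosomal proteins with other names (Dap3, Aurkaip1, Chchd1, Ptcd3 and Gadd45gip1) all had positive log2 fold changes, from 0.05 to 0.30, although 1 of the 5 was negative (−0.02) with upper-quartile factors, and 0 were called. Of 22 assembly factors, 9 had a positive value, the median was −0.11, and 2 were called, both lower. These were Trmt2b, an RNA methyltransferase, with a log2 fold change of −0.98 (adjusted p 0.0133), and Gtpbp10, a GTPase of large-subunit assembly, with −0.67 (adjusted p 0.0207). Trmt2b lay at 21.3, 27.1 and 17.2 CPM in siNC and at 10.2, 12.7 and 10.2 CPM in siPkm2.

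Of 14 translation factors, 2 were called higher and 2 lower. Tufm, the elongation factor that brings aminoacyl-tRNA to the ribosome, lay at 64.3, 66.0 and 62.3 CPM in siNC and at 92.3, 85.2 and 89.2 CPM in siPkm2, with a log2 fold change of 0.47 (adjusted p 0.0189). Its groups were narrow and far apart. The initiation factor Mtif3 had 0.54 (adjusted p 0.0366), and the other initiation factor, Mtif2, had −0.36 (adjusted p 0.049). Oxa1l, which inserts new proteins into the inner membrane beside the mitoribosome, had −0.49 (adjusted p 0.0185). Of 21 genes for charging mitochondrial tRNAs, Fars2 (0.62) and Tars2 (0.47) were called higher, with a median of −0.08 over the list. None of 6 genes of mitochondrial transcription was called.

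The ribosomal RNAs of the mitoribosome showed no call. Transcripts of mt-Rnr1 lay at 182, 146 and 155 CPM in siNC and at 183, 137 and 145 CPM in siPkm2, and those of mt-Rnr2 at 244, 120 and 163 CPM against 207, 108 and 124 CPM. Their log2 fold changes were −0.06 and −0.26, the latter with an adjusted p of 0.0875 with the block. The cytosolic ribosomal proteins are the counterparts outside mitochondria. Of 93 listed, 86 were tested, of which 21 had a positive value (24.4%), with a median of −0.09 (13 and −0.16 with upper-quartile factors). Within replicate numbers, 11, 21 and 64 of the 86 were higher in siPkm2 for replicates 1, 2 and 3, with medians of −0.24, −0.07 and 0.09, so that the direction turned in replicate 3. With the block, 3 were called higher and 5 lower. Counts were fractional for 89.5% of them, and these genes have many near-identical copies, so their values are uncertain.

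**Figure D5:**
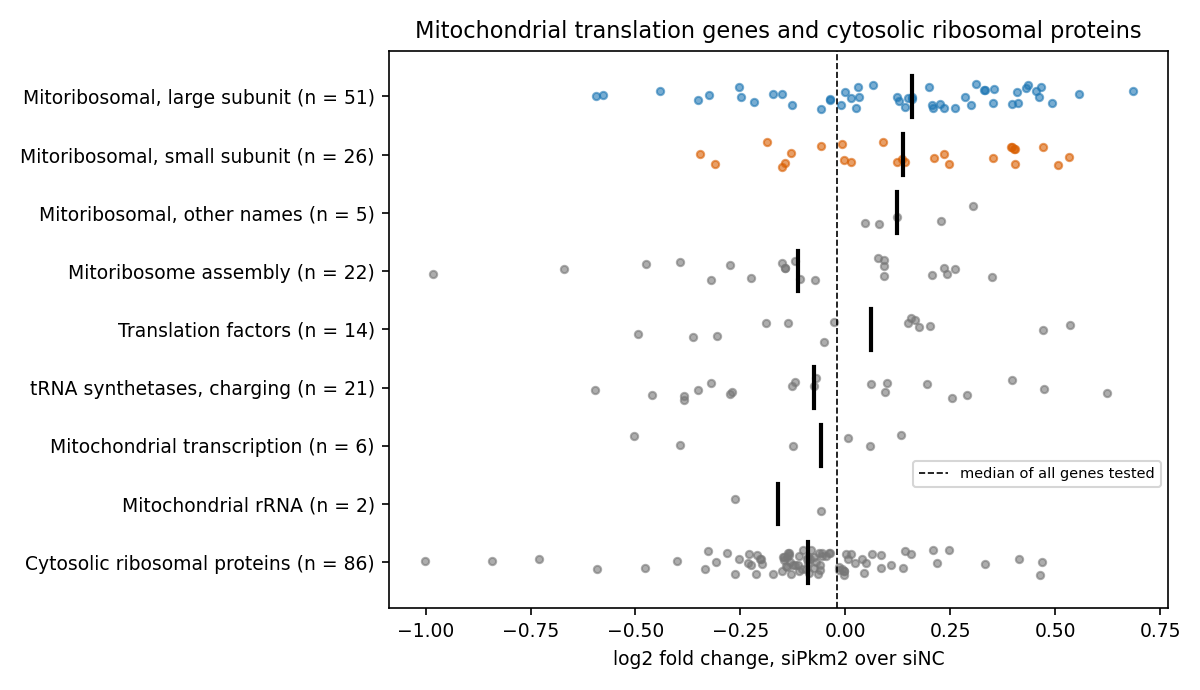
Log2 fold change (siPkm2 over siNC, without a block) of each tested gene in the mitoribosomal groups and in other lists of mitochondrial translation and of cytosolic ribosomal proteins; vertical bars mark list medians and the dashed line the median of all genes tested (−0.02). The large and small subunits have medians of 0.16 and 0.14, the assembly factors −0.11 and the cytosolic ribosomal proteins −0.09, and every list spreads to both sides of 0 except the mitoribosomal proteins with other names and the ribosomal RNAs.

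Promoters of mitoribosomal protein genes are known to be rich in sites for a few general activators. RefSeq promoters of GRCm38.p6, 250 bases before to 50 after the start, were found for 69 of the 78 members, 75 promoters in all, and none was found for Mrpl4, Mrpl13, Mrpl15, Mrpl19, Mrpl38, Mrpl54, Mrps28, Mrps34 and Mrps35. Both strands were searched. The NRF1 motif was searched with an inner position open to any base. It was found in 17.3% of the member promoters, against 9.18% of the promoters of tested genes and 4.6% of all promoters. The ETS motif CCGGAAG was found in 34.7%, against 16.2% and 8.86%, and the YY1 motif AAGATGGC in 16%, against 4.13% and 2.75%. Any of these occurred in 43 of the 75 promoters (57.3%), against 26.3% of those of tested genes. The GC box GGGCGG, at 52%, was less frequent than in promoters of tested genes (61.1%), the E-box CACGTG was found in 9.33% (against 9.72%), the TATA box TATAAA in 6.67% (against 7.39%) and TGACGTCA in 2.67% (against 2.87%). The shares are per promoter, so a gene with several promoters, such as Mrpl2 for the E-box, was counted more than once. They are descriptions of the letters, and a match is not a bound site.

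The NRF1, ETS and YY1 motifs did not sort the members by their fold change. A member whose promoters differed in a motif entered the medians both with and without it. The median log2 fold change was 0.14 with the NRF1 motif and 0.12 without it, 0.12 with and 0.13 without the ETS motif, and 0.13 both with and without the YY1 motif. At least 1 of these motifs was found for 8 of the 16 members called higher with the block that had a promoter. It was found for 2 of the 3 called lower, and for 33 of the 50 not called. The median was 0.105 with and 0.179 without the GC box, 0.149 and 0.131 for the E-box, and 0.065 and 0.134 for the TATA box. For TGACGTCA it was 0.495 with and 0.128 without, but only 2 members carried it, Mrpl16 and Mrpl49, both called higher. These stretches come from promoters of members called in either direction and show that the same letters stand before genes that differed oppositely. The capitals mark the motif, NRF1 in Mrpl9, Mrpl39 and Mrpl32, and ETS in Mrpl22 and Mrpl33. The NRF1 matches shown all have a T at the open position, whereas the matches of other members, such as Mrpl14 and Mrpl44, have another base there.
Mrpl9, higher, chr3:94443298-94443327, plus strand: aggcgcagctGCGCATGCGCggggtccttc
Mrpl39, higher, chr16:84735350-84735379, minus strand: aaggagaggcGCGCATGCGCccccgcgtgg
Mrpl32, lower, chr13:14613105-14613134, minus strand: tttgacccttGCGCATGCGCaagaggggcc
Mrpl22, higher, chr11:58171600-58171629, plus strand: cttttccggtcCCGGAAGccggcctcggac
Mrpl33, lower, chr5:31613937-31613966, plus strand: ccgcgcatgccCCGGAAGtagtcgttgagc

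Many of these genes start back to back with a neighbour. In the annotation, 26 members had a protein-coding gene on the other strand whose start lay within 1000 bases (or overlapped by up to 500), and all 26 neighbours were tested. Member and neighbour had the same sign in 18 pairs and opposite signs in 8. Among the 18, Mrpl13 was at −0.000 (0.019 with the block) beside Mtbp at −0.12. One of these pairs, Mrpl46 and Mrps11, consists of members and was counted from both sides, with log2 fold changes of 0.07 and 0.40. Both genes were called with the block in 3 of the 26 pairs. Singly, 28.2% of members and 23.1% of all genes were called, and shares for pairs of other genes were not worked out. Mrpl40 (0.46) and the histone chaperone gene Hira (0.44), with starts 175 bases apart, and Mrpl30 (0.41) and Mitd1 (0.93), 66 bases apart, differed in the same direction. The adjusted p of Hira and Mitd1 was 0.241 and 0.347 without the block, and 0.0272 and 0.0301 with it. Mrpl32 (−0.44) and the proteasome gene Psma2 (0.38), 75 bases apart, differed in opposite directions, with adjusted p of 0.0429 and 0.0283 with the block. Next to Mrpl10, which differed by 0.03, Lrrc46 was at −2.10 (adjusted p 0.166 without the block, 0.0231 with it), with starts 153 bases apart.

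An siRNA can also pair through its seed, bases 2 to 8, with other transcripts. The antisense strand of the third siPkm2 is printed here with its seed in capitals, and the matching letters in a transcript are GAGAAAC.
siPkm2 #3, antisense: uGUUUCUCcagacagcaugtt
These letters occurred in the longest annotated 3′ UTR of 12 of the 77 members with such a region (15.6%), against 17.9% of 13273 tested genes. The longest region was taken over all transcripts with an annotated coding part, of any type. Some matches, such as those of Mrpl28 and Mrps34, may therefore lie in letters that are coding in other transcripts, which was not tested. Members with a match had a median log2 fold change of 0.11 and 5 of 12 were lower (4 of 12 with the block). Those without had a median of 0.16 and 20 of 65 were lower (20 of 65 with the block). Over all tested genes the medians were −0.18 with and 0.03 without a match. Mrpl33, the lowest member, held a match, and so did Mrpl19, Mrps14 and Mrpl28, which were called higher with the block. In 5 of the 12 members, Mrpl33, Mrpl19 and Mrps14 among them, the letters were followed by CCTGTCT. The contexts of these 3 are shown, with the match in capitals.
Mrpl33, lower: cagggctactcgGAGAAACcctgtctcgaa
Mrpl19, higher: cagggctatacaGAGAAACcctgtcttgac
Mrps14, higher: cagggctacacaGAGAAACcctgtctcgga
Mrps36 and Mrpl32 held no match, nor did Mrpl22 and Mrpl16.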

How the data were processed

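The deposited table gives every gene an estimated count per library, without normalization by the authors, the deposited TPM values, and the authors' own comparison as a fold change (a ratio), a log2 fold change and p-values, none of which was used. The submitters' processing notes name edgeR and mm9, while the aligner, the counting and the annotation are not given in the sources used here. Positions are those of GENCODE M21 on GRCm38, matched by Ensembl identifier.

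Estimated counts were rounded and tested in R 4.3.3 with edgeR 4.0.16 (filterByExpr on the group, TMM factors, quasi-likelihood test, Benjamini-Hochberg adjustment over 15269 genes), with DESeq2 1.42.0 and with limma 3.58.1 on log2(TPM + 1) or log2(TPM + 0.1) as alternatives. The study's supplementary methods ask for more than a 2-fold change besides an adjusted p under 0.05. Here genes were called on the adjusted p with any fold, and the stricter count is given as well. Standard errors are the log2 fold change over the root of F. Of the steps used, only the edgeR fits, with and without the block, were tested on simulated data. Differences within a replicate number used CPM + 0.5.

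The labels number the replicates 1, 2 and 3 in each group without saying what a number stands for. Same-numbered libraries deviated together, with correlations of 0.664, 0.756 and 0.646 across all genes, and blocked values stand beside the calls they change. Within a group, libraries differed by more than sampling noise, relative to library totals, for at least 52.7% of genes and 43.6% of members. This comparison cannot tell separate cultures from technical repeats of the same culture. Variance shares are from log2 CPM.

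The members and lists were chosen with earlier results of these data known. Members named were the 20 with the lowest p among those called in either fit, the 5 highest and 5 lowest fold changes, the 5 most and 3 least abundant, and those of the structural groups. The siRNA strands come from the study's supplementary table. The result for 1 gene of the tRNA charging list is not reported here.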

Additional observations from a re-analysis of the deposited data

How the results depend on the processing

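The replicate block moved the calls most. With it, Pkm had a log2 fold change of −2.53 (−2.52 by DESeq2 with the block, −2.50 by DESeq2 without it) and passed the threshold, which it missed without the block. The members called were 22 with the block, 17 by DESeq2 with the block and 0 without it. Blocked fits without replicate 1, 2 or 3 of both groups called 0, 31 and 0 members. All genes called numbered 3524 with the block and 3884 by DESeq2 with the block (890 and 1023 at a fold over 2). Without the block they numbered 825 by DESeq2 (428), 3 with upper-quartile factors, with library totals or with at least 10 counts in every library, 9 with no filter and 1 by limma with either pseudocount, the same counts holding at a fold over 2. Leaving out single libraries gave between 0 and 105 genes without the block at either threshold, the 105 without siNC replicate 2. Leaving out a replicate number from both groups gave between 0 and 5941 genes with the block (0 and 1639 at a fold over 2), the 0 without replicate 1 or replicate 3. The Pkm log2 fold change then ran from −2.80 to −2.34 without the block and from −2.63 to −2.39 with it and a number left out.

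The median log2 fold change of the members was 0.08 with upper-quartile factors, which moved the median of all genes to −0.09, and ran from 0.062 without siPkm2 replicate 1 to 0.241 without siNC replicate 1. That of the large subunit was 0.09 with upper-quartile factors, 0.11 by limma on log2(TPM + 1), and ran from 0.059 to 0.244 over the libraries left out. That of the small subunit ran from 0.11 to 0.23. The number of members with a positive value ran from 45 to 61 over the libraries left out. Members whose groups did not overlap numbered 46 without replicate 2 of both groups (33 higher, against 29.1% of all genes, and 13 lower, against 29.2%), an alternative chosen after seeing the data. The log2 ratio of the summed levels was 0.14 for CPM against 0.06 for TPM, and ran from 0.009 without siPkm2 replicate 1 to 0.111 without siNC replicate 1.

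Of the named genes, 6 changed sign under some setting, and none of them was called. Mrpl10 was at −0.041 with upper-quartile factors, −0.013 with library totals and −0.009 by limma with either pseudocount. Mrpl17 was at −0.057 with upper-quartile factors, −0.021 with library totals, −0.002 with the block, and −0.110 and −0.111 by limma. It ran from −0.197 to 0.259 over single libraries left out, and, here and for the next genes with a number left out of both groups, from −0.029 to 0.035 with the block (−0.020 without replicate 1). Mrpl47 was at −0.034 with upper-quartile factors and at −0.501 and −0.571 by limma, and ran from −0.149 to 0.298, and from −0.060 to 0.094 with the block. Mrpl52 was at 0.009 by limma with either pseudocount and ran from −0.166 to 0.198, and from −0.144 to 0.10 with the block. Mrpl54 ran from −0.441 to 0.194, and from −0.185 to 0.059 with the block, and Mrpl45 from −0.008 to 0.317. The cause of these differences was not tested, except that the limma fits use TPM in place of counts and that fits with a library left out have fewer samples.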
